A study of Mus musculus with 4 samples.

Results

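The genes described here are 9 phagocytic receptors, bridging molecules and an engulfment adaptor, chosen by name: Mertk, Tyro3, Lrp1, Stab1, Msr1, Cd36, Pros1, Gas6 and Elmo1. All 9 were found among the 28692 genes of the count tables. Their level and detection were measured in single microglia and other myeloid cells, in 4 libraries of 1 mouse each. Every mouse was a male C57BL/6J animal at P90 (90 days) that had received PBS through the tail vein 24 hours earlier, and the labels put all of them in 1 group, cold Dounce, PBS (n = 4). The study's methods give another interval after the injection, so it is uncertain. Cortex and hippocampus were dissociated on ice by Dounce homogenisation, a mechanical method without enzymes, and live CD45+ CD11b+ cells were sorted, a gate that also admits border macrophages and monocytes. The study's sample sheet adds CX3CR1+ to the gate of these samples, which its methods do not. There was no treated group, so the comparisons are between libraries and between sets of cells within the same mice.

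Microglia clear dying cells, debris and synaptic material. Mertk and Tyro3 are receptor tyrosine kinases of the TAM family, and the secreted proteins Pros1 and Gas6 bridge them to phosphatidylserine on the surface of the target. Lrp1 is a large endocytic receptor, Stab1, Msr1 and Cd36 are scavenger receptors, and Elmo1 is a cytosolic adaptor that acts with Dock proteins to activate Rac during engulfment.

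After cells with fewer than 400 genes or more than 10% mitochondrial UMIs (unique molecular identifiers, 1 per captured molecule) were removed, 13002 of 13138 barcodes remained, with 2576 to 3692 cells and 5841671 to 11267195 UMIs per library. Median depth was 1905 to 2936 UMIs per cell. Between 6 and 21 barcodes were shared by any pair of libraries, and 81 occurred in more than 1. The 10 microglial markers summed to 40832 ± 506 CPM (UMI counts scaled to a common library total; SD, n = 4) and the 10 border macrophage markers to 67.6 ± 29.9 CPM. All 5 neutrophil markers were at 0. The 6 monocyte markers summed to 37.7 ± 18.6 CPM and the 5 neuronal markers to 1.74 ± 0.158 CPM. Replicate 4 stood apart in 1 measure of cell state: 383 of its cells met a rule for immediate early genes, against 8 to 13 cells in each of the other libraries. The study places a clogged sorter, and with it repeated moves between ice and room temperature, in the last of its mice. It found its ex vivo activation signature, which holds immediate early genes, almost only in that mouse. The study's numbering of the mice is not that of the labels, so no label names the library of that mouse. The part of the sorting in the immediate early genes was not tested here.

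The coding starts of 6 of the genes are shown because they are later set beside the levels in cells poor in ribosomal protein transcripts. Each line holds the first 75 coding bases (25 codons), 5′ to 3′ on the coding strand, from the GENCODE M21 transcripts on GRCm38. Capitals mark codons whose second base is T, which encode the hydrophobic amino acids phenylalanine, leucine, isoleucine, methionine and valine. Such codons are frequent in signal peptides.
Pros1: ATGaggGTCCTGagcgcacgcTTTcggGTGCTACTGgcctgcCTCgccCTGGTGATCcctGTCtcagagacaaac
Gas6: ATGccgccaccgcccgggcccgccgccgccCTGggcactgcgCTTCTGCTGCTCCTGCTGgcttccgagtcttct
Mertk: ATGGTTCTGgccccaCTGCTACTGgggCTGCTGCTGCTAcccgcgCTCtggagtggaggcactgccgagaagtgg
Lrp1: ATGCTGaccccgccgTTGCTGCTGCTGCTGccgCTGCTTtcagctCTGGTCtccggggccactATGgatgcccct
Stab1: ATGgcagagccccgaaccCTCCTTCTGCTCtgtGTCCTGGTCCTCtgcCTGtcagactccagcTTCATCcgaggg
Elmo1: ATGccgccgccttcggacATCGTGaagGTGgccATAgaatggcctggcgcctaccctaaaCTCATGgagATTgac
Pros1, Lrp1 and Stab1 each held 12 such codons of 25, a number reached by 5.58% of tested genes. Mertk held 11, reached by 9.79%. Gas6 and Elmo1 held 8, near the median of 7 over tested genes, although Gas6 is secreted and Elmo1 is cytosolic.

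The first comparison asked how strongly each gene was expressed and whether the 4 mice agreed. The kinase Mertk (ENSMUSG00000014361, GRCm38 chromosome 2, 128698956 to 128802894, plus strand, 19 exons) had 300.5, 244, 328 and 319 CPM in replicates 1 to 4, a mean of 298 ± 37.9 CPM (SD, n = 4). Replicate 2 was the lowest and the other libraries lay close together. Its ligand Pros1 (ENSMUSG00000022912, chromosome 16, 62854307 to 62929346, plus strand, 15 exons) had 275, 273, 266 and 289 CPM, a mean of 276 ± 9.72 CPM, the smallest relative spread among the 6 abundant genes. The other ligand, Gas6 (ENSMUSG00000031451, chromosome 8, 13465374 to 13494490, minus strand, 15 exons), had 131, 127, 158 and 158 CPM, with replicates 1 and 2 below replicates 3 and 4.

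The adaptor Elmo1 (ENSMUSG00000041112, chromosome 13, 20090596 to 20608353, plus strand) had 257, 234, 282 and 278 CPM (mean 263 ± 22.1 CPM, SD, n = 4). The scavenger receptor Stab1 (ENSMUSG00000042286, chromosome 14, 31139013 to 31168641, minus strand, 69 exons) had 245, 219, 222 and 215 CPM, highest in replicate 1. The endocytic receptor Lrp1 (ENSMUSG00000040249, chromosome 10, 127538161 to 127621148, minus strand, 89 exons) had 184, 140.0, 195 and 182 CPM, lowest in replicate 2. These 6 genes ranked 449th (Mertk) to 1037th (Gas6) of 15581 detected genes. The order of means was Mertk, Pros1, Elmo1, Stab1, Lrp1 and Gas6. The ranges of Mertk, Pros1 and Elmo1 overlapped, as did those of Elmo1 and Stab1 and those of Lrp1 and Gas6. Stab1 and Lrp1 did not overlap. Within libraries, Mertk exceeded Pros1 in 3 of 4 and Pros1 exceeded Elmo1 in 3 of 4 (exact two-sided sign-flip permutation p = 0.375 for each pair). Elmo1 exceeded Stab1, Stab1 exceeded Lrp1 and Lrp1 exceeded Gas6 in 4 of 4 libraries (exact permutation p = 0.125 for each pair), which is the smallest p that 4 libraries allow. Counts of 3′ ends give 1 UMI per molecule whatever its length, but capture can differ between genes.

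The remaining 3 genes were rare. The class A scavenger receptor Msr1 (ENSMUSG00000025044, chromosome 8, 39581685 to 39642673, minus strand) had 13, 18, 17 and 24 UMIs, or 1.84, 1.598, 2.91 and 2.67 CPM. Cd36 (ENSMUSG00000002944, chromosome 5, 17781690 to 17888801, minus strand), a receptor for fatty acids and oxidised lipoproteins, had 9, 9, 7 and 22 UMIs, or 1.28, 0.799, 1.20 and 2.44 CPM. Tyro3 (ENSMUSG00000027298, chromosome 2, 119797733 to 119818104, plus strand) had 1 UMI each in replicates 2 and 4 and 0 in the others. The limit that a count of 0 allows (3 UMIs) was 0.425 CPM in replicate 1 and 0.514 CPM in replicate 3.

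**Figure D1:**
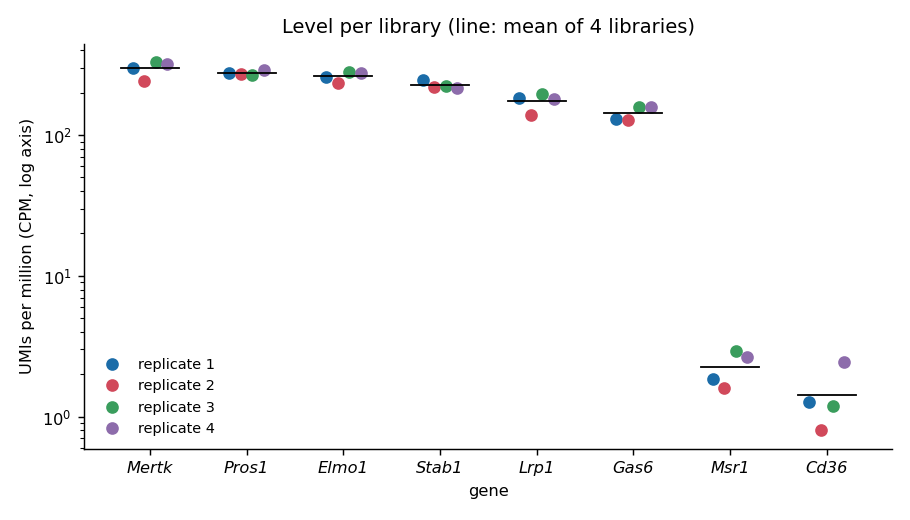
Level of 8 genes in CPM on a log axis, with 1 point per library and a line at the mean of 4 libraries; Tyro3, with 2 UMIs in all, is left out. Mertk, Pros1, Elmo1, Stab1, Lrp1 and Gas6 lie between 127 and 328 CPM in every library, and Msr1 and Cd36 between 0.799 and 2.91 CPM.

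No library stood apart in the level of any of the 9 genes by Dixon's range test (two-sided, on log2(CPM + 1)), which divides the gap between an extreme value and its neighbour by the range of all 4 and calls ratios above its 95% critical value. The nearest was Lrp1, with a ratio of 0.786. Over all 10331 genes at a mean of 2 CPM or more, 4.76% had 1 library apart, so 0 of 9 is no result about these genes. Without the macrophage-marker cells described further on, Stab1 crossed the critical value (0.836).

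Detection was compared at equal depth, in cells thinned at random to 1000 UMIs (12737 cells, and cells with fewer UMIs left out). At this depth Mertk was detected in 25.3% ± 2.73 of cells (SD, n = 4), Elmo1 in 24.0% ± 1.84, Pros1 in 23.9% ± 0.664, Stab1 in 20.1% ± 0.901, Lrp1 in 16.2% ± 1.43 and Gas6 in 12.9% ± 1.39. Without thinning Mertk was detected in 42.0% of cells in replicate 1, against 25.6% (95% Clopper-Pearson interval 24.1 to 27.1%) after it. Msr1 was detected in 0.182% ± 0.0527 and Cd36 in 0.0977% ± 0.0806 of thinned cells, and Tyro3 in 0, which allows a share of up to 0.0858% in replicate 1. No library stood apart in any of these shares. The sort holds no cell type sure to lack the abundant genes, so the share that free RNA gives was not measured. Over all 9 genes, a thinned cell held a mean of 1.41 ± 0.102 UMIs, 25.5% ± 2.34 of cells held none of the genes, and 10.6% ± 1.59 held 3 or more.

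Cells poor in ribosomal protein (RP) transcripts were compared next. In each library the 10% of cells with the lowest RP share (the lowest decile) (258 to 369 cells, 1301 in all) was set against the other cells, with RP genes removed from counts and totals. Median RP shares were 4.69 to 5.66% in that decile and 7.51 to 8.83% in the other cells. Counts were summed per library and fitted with edgeR's quasi-likelihood test with the library as a block. Adjusted p-values are Benjamini-Hochberg over all tested genes, and a gene was called below 0.05. Cd36 and Tyro3 fell below the filter of 2 CPM and were not tested.

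Pros1 was the one gene of the 7 tested that was called in the lowest decile, where 5.89% of all genes were called (2.47% higher and 3.42% lower). Its level outside RP genes was 391, 337, 370.4 and 381 CPM in the lowest decile and 294, 296, 282 and 308 CPM in the other cells of replicates 1 to 4. The lowest value in the RP-poor cells exceeded the highest in the others, and the log2 fold change was 0.33 ± 0.06 (SE, adjusted p = 4.5e-06). The call was lost when cells with fewer than 1000 genes were left out (0.15, adjusted p = 0.15).

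The remaining 6 genes did not pass the test. Lrp1 had a log2 fold change of 0.17 ± 0.07 (SE, adjusted p = 0.18) with the value higher in 4 of 4 libraries, and Stab1 had 0.13 ± 0.07 (adjusted p = 0.31). Mertk, Gas6 and Elmo1 lay between 0.07 and 0.10. Msr1 had 3 UMIs in all RP-poor cells. Cd36 had 0 UMIs in the lowest decile of each library. The median over the 7 tested genes was 0.10, beside 0.01 over all genes.

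RP-poor cells also differed in depth and in nuclear RNA. Their median UMI count was 1533 to 2468, against 1940 to 2983 in the other cells, and the share of Malat1, a nuclear transcript, was 6.24 to 6.79% against 5.21 to 5.70%. The summed level of the 10 microglial markers was 49122 to 52567 CPM against 43622 to 44254 CPM, and 8 of the 10 were called higher. For the Pros1 difference, cells were also thinned and the decile was taken within quintiles of UMI count, and Pros1 stayed called (0.38 and 0.27). It did not stay called in cells with at least 1000 genes, as given above.

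**Figure D2:**
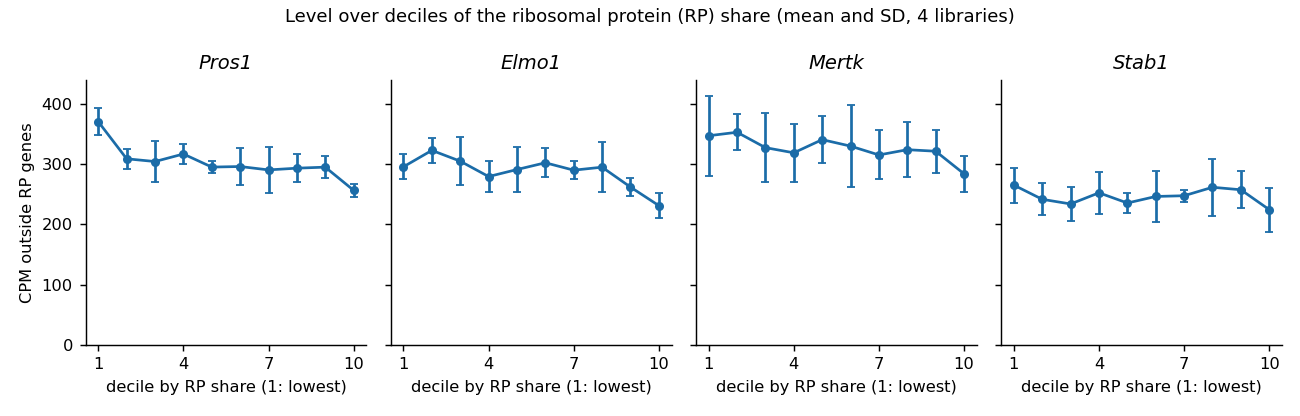
Level outside RP genes (CPM, mean and SD over 4 libraries) of Pros1, Elmo1, Mertk and Stab1 in each decile of cells by RP share, from the lowest (1) to the highest (10). Pros1 is highest in decile 1 (370.3 CPM) and lowest in decile 10 (256 CPM), with deciles 2 to 9 between 290.3 and 317 CPM.

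Over the deciles of RP share, the change in Pros1 lay at the ends: 370.3 ± 22.7 CPM in the lowest decile, 309 ± 16.4 CPM in the second and 256 ± 10.8 CPM in the highest (SD, n = 4). Elmo1 was 295 ± 20.6 CPM in the lowest decile and 231 ± 20.2 CPM in the highest. Mertk was 347 ± 66.5 CPM in the lowest decile and 353 ± 30.2 CPM in the second, and Stab1 265 ± 28.9 and 241 ± 26.3 CPM, differences within their spread.

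The cells below 0.5 of their library's median RP share, called the tail here, were also compared with the rest, with a bound chosen after the data had been seen. The tail held 90, 42, 55 and 66 cells in replicates 1 to 4 (253 in all), with median RP shares of 1.77 to 2.13%. A further 41 to 70 cells per library lay between that bound and 0.6 of the median, so the bound marks no gap. Median depth was 1059 to 1309 UMIs and 560 to 658 genes, against 1917 to 2945 UMIs and 1023 to 1406 genes in the other cells. Malat1 made up 6.34 to 7.98% of UMIs, and 35.6 to 49.1% of tail cells belonged to the decile with the highest Malat1 share. Microglial markers summed to 57634 to 67595 CPM in the tail, against 43942 to 44651 CPM, and border macrophage markers to 0 to 87.2 CPM, against 32.3 to 107 CPM.

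All tail cells also belonged to the lowest decile by RP share, so the tail is no independent set. Pros1 was the one gene of 7 called in it, where 6.89% of all genes were called (1.62% higher and 5.27% lower). It had 529, 527, 704 and 523 CPM in the tail and 298, 298, 284 and 311 CPM in the other cells, from 56, 33, 46 and 48 UMIs. The groups did not overlap, and the log2 fold change was 0.91 ± 0.15 (SE, adjusted p = 5.0e-08). Replicate 3 was the highest, and without it the change was 0.82. With the tail left out, in the lowest decile of the remaining cells, Pros1 stayed called at a smaller log2 fold change (0.18, adjusted p = 0.044). When cells with fewer than 1000 genes were left out, 33 tail cells remained and the tail estimate reversed to -0.57 (adjusted p = 0.62). The median of all genes in that fit was -0.75, with 1 gene called higher and 92 lower.

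Lrp1, Gas6 and Stab1 had estimates near each other in the tail and missed the threshold. Over the alternative settings they ran from -0.82 to 0.74 for Lrp1, -1.14 to 0.70 for Gas6 and -0.37 to 0.61 for Stab1. Lrp1 had 255, 351, 398 and 163 CPM, against 201, 152, 210 and 198 CPM in the other cells, so that replicate 4 went the other way (log2 fold change 0.54 ± 0.18, adjusted p = 0.052). Gas6 was higher in 4 of 4 libraries (0.53 ± 0.20, adjusted p = 0.10). Stab1 was also higher in 4 of 4, with no overlap between 276 to 414 CPM in the tail and 232 to 269 CPM elsewhere (0.46 ± 0.17, adjusted p = 0.078).

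Mertk was higher in 3 of 4 libraries (0.28 ± 0.16, adjusted p = 0.38). Elmo1 was near 0 (0.03 ± 0.17), with 521 CPM in replicate 3 and 160 to 294 CPM in the others. Msr1 and Cd36 had 0 UMIs in the tail.

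**Figure D3:**
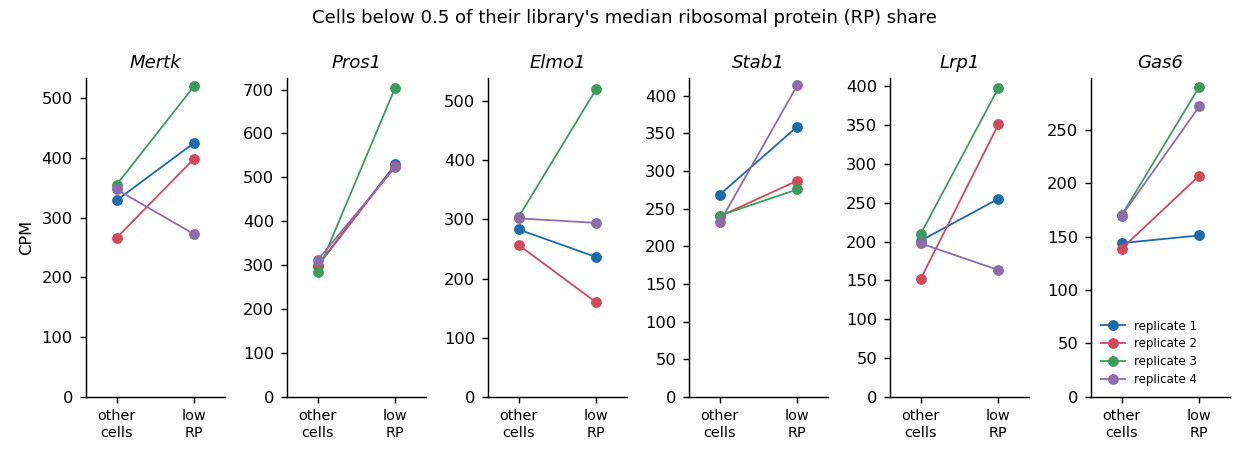
Level outside RP genes (CPM) of 6 genes in cells below 0.5 of their library's median RP share (low RP) and in the other cells, with 1 line per library and an axis of its own for each gene. Every Pros1 line rises, to between 523 and 704 CPM, while Mertk, Lrp1 and Elmo1 have lines in both directions.

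The scale of these values depends on the normalisation. The median log2 fold change of all 10236 genes in the tail was -0.27 under TMM and -0.12 under DESeq2 size factors, and called genes split into 166 higher and 539 lower under TMM and 326 higher and 390 lower under size factors. Under size factors Lrp1 (0.69), Gas6 (0.68) and Stab1 (0.61) were called beside Pros1. Under TMM the median of the 7 tested genes was 0.46.

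Features of the transcripts were set beside the tail after the data had been seen, as a description. The median log2 fold change of all genes was -0.32 for 0 to 5 codons with T as second base, -0.32 for 6 to 8, -0.15 for 9 to 11, 0.20 for 12 to 14 and 0.27 for 15 or more. Pros1, Lrp1 and Stab1 fell in the bin of 12 to 14 codons, Mertk in that of 9 to 11, and Gas6 and Elmo1 in that of 6 to 8. By transcript length the median rose from -0.83 below 1000 bases to -0.12 at 8000 bases and more, and the Lrp1 transcript, with 14888 bases, was in the longest bin. Codons and length were known for 95.5% of tested genes, and their part in the levels of the 9 genes was not tested.

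Of 64 further genes of engulfment, 44 could be tested. In the lowest decile 7 were called higher and 1 lower, beside the 2.47% and 3.42% of all genes. The higher genes were the chaperone and eat-me signal Calr (0.25), the receptors Havcr2 (0.24), Cd14 (0.23) and Trem2 (0.18), the complement bridging genes C1qa (0.20) and C1qc (0.11), and Sirpa (0.20), a receptor that restrains engulfment. The mannose receptor Mrc1 was lower (-1.57). Mrc1 is itself a border macrophage marker, and without macrophage-marker cells its call was lost (-0.69, adjusted p = 0.58). All 7 higher calls were lost without the library block, and all but that of C1qa with at least 1000 genes per cell. Havcr2 lost its call in 11 of 20 settings, C1qc in 9 and Cd14 in 6, among them the decile within quintiles of UMI count (0.06, adjusted p = 0.71).

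In the tail 7 were called higher and 3 lower, beside 1.62% and 5.27% of all genes. Calr (0.63), C1qa (0.54), Cd14 (0.53), Sirpa (0.52), Trem2 (0.45), C1qc (0.33) and the lysosomal membrane gene Lamp1 (0.32) were higher. Rab7, a GTPase of late endosomes, was lower (-1.27), as were the actin regulators Wasf2 (-0.64) and Rac1 (-0.49). Over the 44 genes the median in the tail was 0.04, beside -0.27 over all genes.

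At the other end, in the decile with the highest RP share, 2 of the 6 genes that reached 2 CPM in the other cells were called, where 6.66% of all genes were (4.77% higher and 1.9% lower). Elmo1 had 220, 211, 257 and 234 CPM, against 289, 261, 312 and 310 CPM in the other cells, without overlap (log2 fold change -0.31 ± 0.06, adjusted p = 0.00025), a call that was lost after thinning (-0.19, adjusted p = 0.40). Pros1 had 244, 269, 253 and 258 CPM against 309, 302, 293 and 320 CPM (-0.21 ± 0.06, adjusted p = 0.019). The Pros1 call was lost in 12 of 19 settings. Leaving out replicate 1, 3 or 4 gave adjusted p-values of 0.16, 0.051 and 0.14. Without macrophage-marker cells it was -0.16 (adjusted p = 0.099). Of the 31 such cells of replicate 4, 27 lay in this decile.

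Msr1 had 10.7, 2.91, 9.17 and 16.0 CPM in the highest decile and 1.04, 1.62, 2.49 and 1.35 CPM in the other cells. These were 7, 3, 5 and 14 UMIs. The mean of the other cells, 1.62 CPM, lay below the filter, which Msr1 passed only through the decile, so its log2 fold change of 2.56 is a description. Cd36 had 12.2, 3.88, 7.33 and 21.7 CPM there and 0.174 to 0.622 CPM in the other cells. Border macrophage markers in that decile summed to 66.9 to 697 CPM, against 24.1 to 83.5 CPM in the other cells. Without macrophage-marker cells the Msr1 estimate was 1.503, and Stab1 was called lower (-0.21, adjusted p = 0.021).

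In the decile of cells with the highest Malat1 share, 3 of 7 genes were called higher, where 11.5% of all genes were called (4.86% higher and 6.65% lower). Stab1 reached 299 ± 39.2 CPM against 234 ± 13.3 CPM (SD, n = 4; log2 fold change 0.27 ± 0.06, adjusted p = 0.00076), without overlap between the groups. Elmo1 had 339 ± 41.7 against 273 ± 23.0 CPM (0.24 ± 0.06, adjusted p = 0.0018) and Mertk 374 ± 53.6 against 311 ± 40.0 CPM (0.17 ± 0.06, adjusted p = 0.032). Elmo1 and Mertk were higher in 4 of 4 libraries, though their ranges overlapped. None of the 3 was called without the library block. Mertk lost its call in 10 of 17 settings, Stab1 in 4 and Elmo1 in 3. Fewer of them were called after thinning, within quintiles of UMI count or with at least 1000 genes per cell. The median depth of these cells was 1474 to 2214 UMIs, against 1956 to 3017 in the others. Pros1 did not pass the test in the Malat1 decile (0.02 ± 0.06, adjusted p = 0.90), though it was higher in 4 of 4 libraries. Its means were 315 ± 11.6 and 290 ± 10.5 CPM (SD). Without TMM it was not called either (0.11, adjusted p = 0.29). All genes split into 502 higher and 687 lower calls under TMM, and 929 and 414 without it.

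Cells carrying macrophage markers were defined by at least 3 UMIs over at least 2 genes of a list that holds none of the 9 genes, and were set against 12405 cells that met no marker rule. There were 6, 13, 10 and 31 such cells in replicates 1 to 4, or 60 in all, with median depths of 3290 to 10392 UMIs against 1899 to 2929 UMIs. Doublets were not removed, and microglial markers still summed to 16560 to 34578 CPM in these cells. Over all genes 2.49% were called (1.57% higher and 0.92% lower), or 162 higher and 95 lower (213 and 62 under DESeq2 size factors), and the median log2 fold change was -0.22 (-0.10 under size factors).

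The values of the 2 rare scavenger receptors in these cells are a description. Msr1 passed the filter of 2 CPM only through them, and Cd36 was not tested. Msr1 had 128, 7.79, 42.7 and 114 CPM in the macrophage-marker cells of replicates 1 to 4 and 1.15, 1.46, 2.12 and 0.934 CPM in the cells meeting no rule. These values rest on 3, 1, 3 and 15 UMIs. Summed over libraries, 22 UMIs gave 62.0 CPM (95% exact Poisson interval 38.9 to 93.9) against 1.39 CPM (1.003 to 1.87). Cd36 had 42.7, 31.2, 42.7 and 83.7 CPM against 0.722, 0.183, 0.176 and 0.667 CPM, from 1, 4, 3 and 11 UMIs. In thinned cells Cd36 was detected in 10.2% of macrophage-marker cells (95% interval 3.82 to 20.8%) and in 0.0329% of the others (0.00898 to 0.0843%).

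Of the 6 genes that reached 2 CPM in the cells meeting no rule, 3 were called. Stab1 rose and Pros1 fell. Stab1 had 213, 810.4, 1040 and 799 CPM, against 246, 214, 214 and 214 CPM (log2 fold change 1.65 ± 0.24, adjusted p = 6.1e-10). It was higher in 3 of 4 libraries, the exception being replicate 1 with its 6 cells and 5 UMIs. The call was lost when the 1% of cells with the most UMIs were left out (0.83, adjusted p = 0.45). Pros1 had 42.7, 210.4, 185 and 68.5 CPM against 278, 275, 269 and 302 CPM, lower in 4 of 4 libraries without overlap (-1.13 ± 0.28, adjusted p = 0.0043). The Pros1 call was lost in 4 of 15 settings. These were without replicate 4 (-0.81, adjusted p = 0.40) and after thinning (-1.76, adjusted p = 0.077). The others were the DESeq2 Wald test (-1.10, adjusted p = 0.12) and the stricter rule of 5 UMIs over 3 genes (-1.03, adjusted p = 0.056).

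The other ligand went the opposite way. Gas6 had 128, 265, 214 and 487 CPM, against 132, 126, 158 and 158 CPM (0.95 ± 0.25, adjusted p = 0.0078), higher in 3 of 4 libraries. The Gas6 call was lost in 5 of 15 settings, among them thinning, without replicate 2 (0.88, adjusted p = 0.18) and without replicate 4 (0.54, adjusted p = 0.77). A difference between the Pros1 and Gas6 changes was not tested.

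Mertk varied between libraries, with 0, 366, 185 and 145 CPM against 302, 243, 331 and 323 CPM (-0.64 ± 0.27, adjusted p = 0.25), and without replicate 2 it was called lower (-1.36, adjusted p = 0.014). Lrp1 (-0.47) and Elmo1 (-0.45) did not pass the test, and Tyro3 had 0 UMIs. Of 43 further engulfment genes tested here, 2 were called higher and 3 lower, beside the 1.57% and 0.92% of all genes. The higher ones were the TAM receptor Axl (4.05 ± 0.64, adjusted p = 3.4e-08) and the phosphatidylserine-binding Anxa5 (1.81 ± 0.30, adjusted p = 1.5e-07). Axl had 2.63 CPM in the cells meeting no rule. Both calls were lost without replicate 4 (Axl 3.33, adjusted p = 0.11; Anxa5 1.09, adjusted p = 0.37) and after thinning (3.58, adjusted p = 0.067, and 1.18, adjusted p = 0.44). Trem2 (-0.98), Havcr2 (-1.06) and the integrin Itgb5 (-0.84) were called lower. Havcr2 and Itgb5 each lost the call in 9 of 15 settings and Trem2 in 3.

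**Figure D4:**
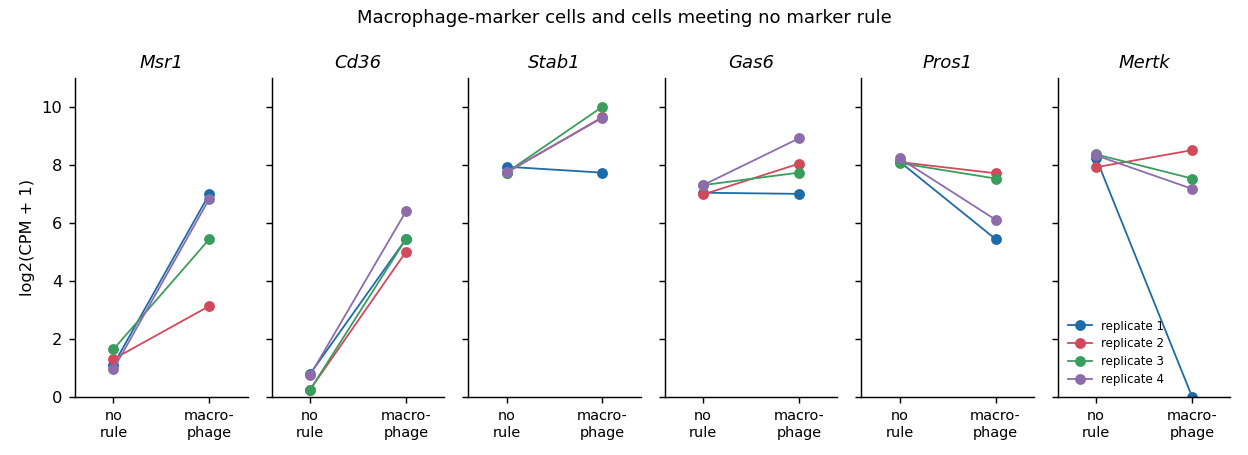
Level as log2(CPM + 1) of 6 genes in macrophage-marker cells and in cells that met no marker rule, with 1 line per library. Msr1 and Cd36 rise and Pros1 falls in all 4 libraries, and Mertk is at 0 in the 6 macrophage-marker cells of replicate 1.

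Interferon-marker cells, chosen by the same rule on 7 interferon-responsive genes, numbered 22, 24, 13 and 15. Pros1 was the 1 gene called of the 6 that reached 2 CPM in the cells meeting no rule, where 1.85% of all genes were (1.23% higher and 0.62% lower): 166 ± 60.9 CPM against 281 ± 14.4 CPM (SD, n = 4), lower in 4 of 4 libraries (log2 fold change -0.86 ± 0.23, adjusted p = 0.017). Border macrophage markers summed to 0 to 1237 CPM in these cells, against 26.0 to 30.5 CPM, and microglial markers to 29081 to 40808 CPM, against 44384 to 45632 CPM. Without macrophage-marker cells Pros1 stayed called lower (-0.80, adjusted p = 0.033). The part of the lower microglial markers in the Pros1 difference was not tested. The median of all genes was -0.30 (-0.08 under DESeq2 size factors), and Pros1 was not called under size factors (-0.64, adjusted p = 0.25). Leaving out replicate 1, 3 or 4 also ended the call, with adjusted p-values of 0.29, 0.20 and 0.082. All genes split into 127 higher and 64 lower calls, and 151 and 9 under size factors.

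**Figure D5:**
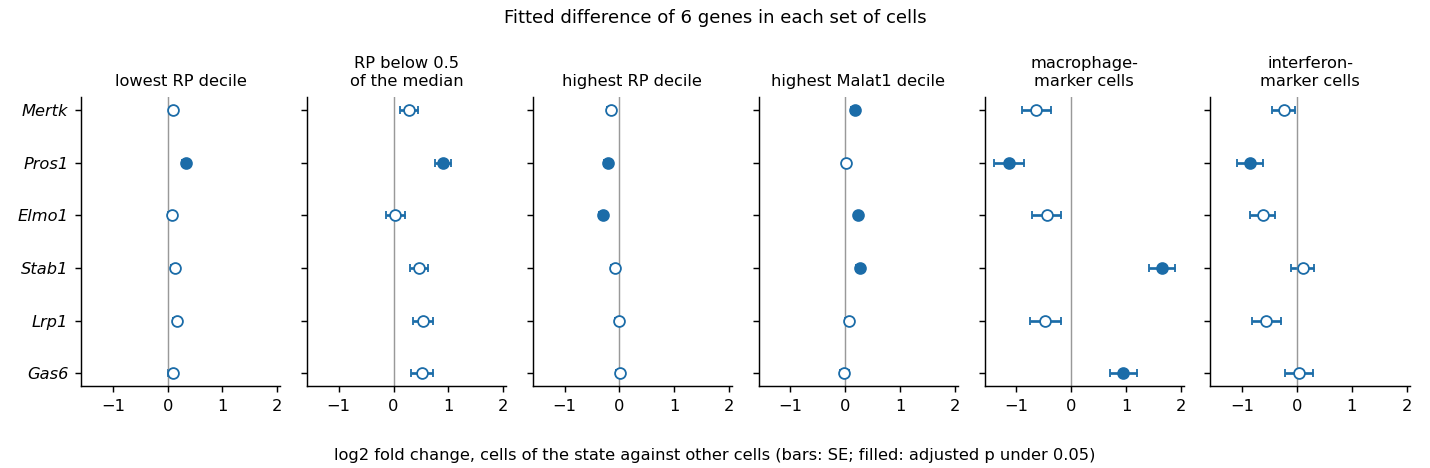
Fitted log2 fold changes (points, with SE bars) of 6 genes in each of 6 sets of cells against other cells of the same libraries, filled where the adjusted p was below 0.05; RP stands for ribosomal protein, and Msr1, whose values need a wider axis, is left out. Pros1 is filled on the higher side in both sets poor in RP transcripts, though the tail lies wholly within the lowest decile. Pros1 is filled on the lower side in the RP-rich, macrophage-marker and interferon-marker sets.

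The other marker-defined cells were too few or too uneven between mice for a fit, and their values have exact Poisson intervals. Of 415 immediate-early-marker cells, 383 came from replicate 4, so levels are given within that library. Mertk had 302 CPM (273 to 334) in them and 323 CPM (310.2 to 336) in its cells meeting no rule. Pros1 had 240 CPM (214 to 268) against 302 CPM (289 to 314), and Stab1 178 CPM (156 to 202) against 214 CPM (204 to 225). Elmo1, Lrp1 and Gas6 were also lower (251, 163 and 130 CPM against 283, 187 and 158 CPM). Cd36 (8.50 against 0.667 CPM, from 11 and 5 UMIs) was higher. Msr1 (5.41 against 0.934 CPM, from 7 UMIs in each set) was higher too. Summed over libraries, in 38 disease-associated-marker cells Stab1 had 97.2 CPM (55.5 to 158) and Cd36 36.4 CPM (13.4 to 79.3), from 16 and 6 UMIs. The cells meeting no rule, summed likewise, had 221 CPM of Stab1 and 0.419 CPM of Cd36. Elmo1, Pros1, Mertk, Gas6 and Lrp1 also had lower values in the disease-associated-marker cells. Elmo1 had 115 against 261 CPM and Lrp1 152 against 171 CPM. In 58 chemokine-marker cells Stab1 had 149 CPM (100.5 to 213) and Pros1 134 CPM (88.3 to 195), against 221 and 281 CPM in the cells meeting no rule. In these sums Mertk (328 against 292 CPM) and Gas6 (149 against 141 CPM) were not lower. Of the 58 cells, 33 came from replicate 4, where Mertk had 377 against 323 CPM and Gas6 163 against 158 CPM. In replicates 2 and 3 Mertk had 242 and 267 CPM against 243 and 331 CPM. Gas6 had 101 and 153 CPM there, against 126 and 158 CPM. Replicate 1 held 3 of the cells. These intervals cover counting error only.

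The genes most like each abundant gene were found over 40 points (10 RP deciles in each of 4 libraries) among 3009 genes at 50 CPM or more, by Pearson correlation. Points share libraries and depth, so no p is given. The nearest were Hsp90b1 for Pros1 (r = 0.79), Hpgds for Elmo1 (0.78), Mef2c for Mertk (0.71), Arhgap31 for Stab1 (0.65), Dhrs3 for Lrp1 (0.56) and Ergic2 for Gas6 (0.54). Among these abundant genes themselves, Mertk and Elmo1 had r = 0.47, Stab1 and Gas6 0.40, and Mertk and Pros1, receptor and ligand, 0.39. Pros1 and Elmo1 had 0.38, and Mertk and its other ligand Gas6 had 0.12.

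Some reads may belong to other genes. Mertk overlaps the antisense gene Gm14011 and Lrp1 the antisense gene Gm16217, while Stab1 and Gas6 meet Nt5dc2 and Tmem255b, on the opposite strand, at their 3′ ends. The strand setting of the counting was not given in the sources used here.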

How the data were processed

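The authors sorted CD45+ CD11b+ cells (with CX3CR1+ in their sample sheet), made 10x 3′ libraries (version 2 kit) and counted them with Cell Ranger 2.2.0 on mm10 (GRCm38) with a filtered Ensembl annotation. The deposited values were UMI counts per gene and cell, not normalised, in cells already called. Depth was 5841671 to 11267195 UMIs per library after filtering (at least 400 genes, at most 10% mitochondrial UMIs).

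Replicates 1 to 4 only name the libraries. Both sets of cells in a comparison came from the same mouse, so the library was a block. Sums were fitted with edgeR 4.0.16 (quasi-likelihood, TMM, mean of at least 2 CPM, in R 4.3.3), with the genes that chose the cells left out. DESeq2 1.42.0, filters, thinning and leave-one-out were alternatives. The scripts were tested on simulated data. Shares have Clopper-Pearson and sums exact Poisson intervals (95%), for counting error only; 1 mouse per library makes n = 4. Named pathway genes were called ones with the largest change (up to 10).

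The 9 genes and all lists were chosen with earlier results of these data known. The comparison of cells below 0.5 of the median RP share, its alternatives, and the codon and length descriptions were added after the data were seen. Of the listed genes, 1 was not matched to the gene table and is not reported here. Protein sequences were not used here.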

Additional observations from a re-analysis of the deposited data

Results flagged for a closer look

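Of 48 sets of 4 library values examined with Dixon's range test, 3 had 1 library apart, and chance gives about 5% of such sets. In the lowest decile by RP share, the log2 ratio of Elmo1 was lowest in replicate 3 (-0.07, against 0.07 to 0.09 in the others; ratio of gap to range 0.866). In cells below 0.5 of the median RP share, the log2 ratio of Pros1 was highest in replicate 3 (1.31, against 0.75 to 0.83; ratio 0.858). The share of immediate-early-marker cells was highest in replicate 4 (12.1% of cells, ratio 0.996). No cause was tested for any of the 3.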

How the results depend on the processing

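Each of 55 fitted gene differences was recomputed under the alternatives, 945 settings in all. In 802 the call stayed as reported (a gene called in neither setting is counted here even where its sign differed), in 117 it was lost, in 25 it was gained, and in 1 it reversed: Pros1 in cells below 0.5 of the median RP share, at -0.57 with at least 1000 genes per cell. The median of all genes in that fit was -0.75. The smallest sets hold 60 and 74 cells.

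For the count of genes called, the lowest RP decile (1 as reported) gave 0 with at least 1000 genes per cell, 2 with 20% of cells and 0 when a log2 fold change over 0.58 was also required, and 1 to 1 when 1 replicate was left out. The counts that follow include Msr1 wherever it passed the filter, so the highest RP decile and macrophage-marker cells have 1 more call than the counts over 6 genes. The highest RP decile (3) gave 5 with no expression filter, 1 when thinned and 1 with the fold, and 2 to 4 without 1 replicate. The Malat1 decile (3) gave 0 with no replicate block, 1 with at least 1000 genes, when thinned, with 5% of cells and within quintiles by UMI count, 0 with the fold, and 2 to 2 without 1 replicate. Macrophage-marker cells (4) gave 2 under the DESeq2 Wald test, 2 without the top 1% of cells by UMI count, 1 when thinned, and 2 (without replicate 4) to 4 without 1 replicate. Interferon-marker cells (1) gave 0 under DESeq2 size factors, no TMM, the DESeq2 Wald test, 10 CPM, at least 1000 genes, without the top 1% and when thinned, 2 with the stricter rule of 5 UMIs over 3 genes, and 0 to 1 without 1 replicate. Cells below 0.5 of the median RP share (1) gave 4 under DESeq2 size factors, the Wald test and 10 CPM, 3 with no TMM, 0 with at least 1000 genes, 2 when thinned, 2 without macrophage-marker cells, and 1 to 3 without 1 replicate; without replicate 1 it was 3 (Lrp1 and Gas6 beside Pros1). The cause was not tested. Without the block the lowest RP decile had 1 call, the highest 2, macrophage-marker cells 4, interferon-marker cells 1 and cells below 0.5 of the median RP share 1. The libraries pair the sets of cells, since both come from the same mouse.

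The count of genes with 1 library apart (0) became 1 in level without macrophage-marker cells (Stab1), 2 without the top 1% of cells (Stab1, and Tyro3, which rests on 1 or 2 UMIs), and in detection 1 when thinned to 2000 UMIs (Tyro3), 1 when not thinned (Cd36) and 1 without macrophage-marker cells (Stab1). Over all genes, the calls in the lowest RP decile fell from 603 to 120 with no replicate block.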
